A study of Mus musculus with 12 samples.

Results

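Chromosomes 1 to 19 of the mouse were cut into stretches of 5 Mb, called bins here, and each bin was described by how its genes differed between AXL knockout and AXL wild-type tumour cells and between low and normal oxygen. A gene counted toward a bin when its mean reached 1 CPM (counts scaled by the library total) in all 4 groups of libraries, and a bin was kept when it held 5 or more such genes. The bins were therefore chosen by expression level alone, but the values that describe them come from the same counts: for each bin the median log2 KO/WT ratio over its genes at each oxygen level, and the median log2 ratio of low to normal oxygen in each genotype. These values are given as descriptions, with no test. In all 442 bins were kept of 502 that held any gene of the files (490 held at least 1 gene at 1 CPM). They contain 10258 of 10375 autosomal genes at 1 CPM, of 49925 autosomal genes and 54232 genes in the files, and 9773 of the 10258 code for protein. A bin held 5 to 109 such genes, with a median of 18.

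The libraries came from MMTV-NIC mouse breast cancer cells, a tumour line in which the mammary-active MMTV promoter drives an activated Neu (ErbB2) together with Cre, with intact AXL (AXL WT) or with AXL knocked out (AXL KO). Cells of each genotype were held in 21% O2 (normoxia) or 1% O2 (hypoxia), giving 4 groups of 3 libraries. The oxygen level follows the titles and the treatment tag, whereas the protocol field gives 1% for all 12 libraries. All 4 groups carry the tumour transgene. AXL status cannot be told apart here from any other difference between the KO and WT cells. The labels do not say how many knockout clones were used, how long the cells spent in 1% O2 or whether a group's 3 libraries were grown separately, so the p-values reflect no more than how these libraries scatter, and that scatter may be technical.

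AXL, a TAM-family receptor tyrosine kinase, binds the ligand GAS6. Cells in low oxygen stabilise the transcription factor HIF, which binds short DNA elements near single genes scattered over all chromosomes. Genes that lie side by side can also share their expression level, because neighbouring promoters can share enhancers and chromatin state, because tandem families arose by duplication, and because the number of copies of a chromosome segment sets how many templates all its genes have. Tumour cell lines often carry gains and losses of whole chromosomes or arms. DNA was not measured in these libraries, and none of these mechanisms was tested.

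The sequences before the annotated transcription start of 5 genes are shown, because these genes sit in the bins of the most extreme values and have separate promoters although they share a bin. Each run covers 250 bases before the start, read from RefSeq on GRCm38.p6. The genes are the most abundant ones of their bin whose RefSeq start lies within 500 bases of the start in the files. Capitals mark GGGCGG, the core of the GC box bound by SP1, and ACGTG, a form of the core of the HIF-binding element, on either strand. Other forms of the HIF core were not searched or marked. Cdc73 and Uchl5 lie in the bin with the lowest KO/WT values, Dnajb9 and Dock4 in the bin with the highest, and Galnt7 in the bin with the highest hypoxia/normoxia values.
Cdc73 (chr1:143702894-143703143, minus strand): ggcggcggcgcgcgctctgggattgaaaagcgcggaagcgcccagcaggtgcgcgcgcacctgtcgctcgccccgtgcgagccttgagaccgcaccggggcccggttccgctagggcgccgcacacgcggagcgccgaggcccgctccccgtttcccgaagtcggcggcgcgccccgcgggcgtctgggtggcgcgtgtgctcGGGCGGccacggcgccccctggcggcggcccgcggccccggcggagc
Uchl5 (chr1:143777028-143777277, plus strand): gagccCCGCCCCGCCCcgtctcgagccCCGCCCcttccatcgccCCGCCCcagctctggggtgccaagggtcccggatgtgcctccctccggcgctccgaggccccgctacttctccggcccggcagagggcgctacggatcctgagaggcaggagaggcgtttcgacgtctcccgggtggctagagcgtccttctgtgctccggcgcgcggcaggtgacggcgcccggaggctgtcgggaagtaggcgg
Dnajb9 (chr12:44210069-44210318, minus strand): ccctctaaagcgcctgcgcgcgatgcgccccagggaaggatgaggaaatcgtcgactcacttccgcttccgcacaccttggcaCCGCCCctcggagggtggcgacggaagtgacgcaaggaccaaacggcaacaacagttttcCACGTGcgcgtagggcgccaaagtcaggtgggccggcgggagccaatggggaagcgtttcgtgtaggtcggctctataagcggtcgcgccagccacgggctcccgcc
Dock4 (chr12:40445803-40446052, plus strand): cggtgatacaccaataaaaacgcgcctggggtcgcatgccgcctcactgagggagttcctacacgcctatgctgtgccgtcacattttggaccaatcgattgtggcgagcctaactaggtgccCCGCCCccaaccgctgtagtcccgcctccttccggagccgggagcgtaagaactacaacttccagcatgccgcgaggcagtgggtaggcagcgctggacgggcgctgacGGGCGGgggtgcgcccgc
Galnt7 (chr8:57653056-57653305, minus strand): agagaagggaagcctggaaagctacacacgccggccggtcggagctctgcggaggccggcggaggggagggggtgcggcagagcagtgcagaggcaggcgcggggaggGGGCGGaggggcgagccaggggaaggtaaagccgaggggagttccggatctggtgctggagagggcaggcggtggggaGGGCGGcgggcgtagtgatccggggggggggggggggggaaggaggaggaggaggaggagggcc
GGGCGG was present in all 5 windows and in 32.9% of all windows of the same length in the RefSeq promoter table. These shares were taken over the whole table with a single entry per symbol, whatever its genome build. Of these entries 27025 were of GRCm38.p6, and a share among them alone was not computed. ACGTG was present only in the Dnajb9 window, as a CACGTG that reads ACGTG on both strands, and in 16.6% of all windows. Because other forms of the HIF core were not counted, a window without ACGTG is not shown to lack a HIF-binding element. The G+C share of the 5 windows ran from 64.0% (Dock4) to 80.4% (Cdc73). Only 77.8% of the bin genes (7980 of 10258) had an entry in the RefSeq promoter table by symbol, so promoter composition was not compared between bins: with fewer than 80% matched such a comparison would be void.

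Axl itself checks the labels. It had 51682, 47960 and 57291 counts in normoxic AXL WT and 23077, 19395 and 28495 in hypoxic AXL WT, against 164, 189 and 200 in normoxic AXL KO and 86, 105 and 78 in hypoxic AXL KO. The genotypes did not overlap at either oxygen level. Library totals ran from 45297267 to 58775422 counts. Of 9 epithelial markers only Krt19 stayed under 1 CPM in every group, and the sum over the 9 ran from 3785 to 3956 CPM in normoxic AXL WT, 2265 to 2495 in normoxic AXL KO and 2097 to 2181 in hypoxic AXL KO. In hypoxic AXL WT it ran from 990 to 4496 CPM. Those libraries stood apart from each other in the bins as well: the median SD of a bin value over 3 libraries was 0.12 in hypoxic AXL WT, against 0.04 in normoxic AXL WT, 0.05 in normoxic AXL KO and 0.05 in hypoxic AXL KO. Bin values that use hypoxic AXL WT are therefore also given with its replicate 1 alone where that moves them by over 1.5 times or turns their sign. Replicate 1 alone is only another setting, because no library of the group was shown to be more reliable than the others. In the marker lists for leukocytes and endothelium 6 of 7 genes stayed under 1 CPM in every group, all but Csf1r and Kdr. The leukocyte sum ran from 5.46 to 134 CPM in hypoxic AXL WT, all other groups being under 1 CPM. Its high end rests mainly on Csf1r. Fibroblast markers (3 of 7 under 1 CPM) summed to 77.7 to 86.2 CPM in normoxic AXL WT, 188 to 198 in normoxic AXL KO, 75.8 to 91.9 in hypoxic AXL WT and 50.6 to 57.1 in hypoxic AXL KO. Adipocyte markers (3 of 4 under 1 CPM) summed to 41.1 to 49.0 CPM in normoxic AXL WT, 8.71 to 13.3 in normoxic AXL KO, 7.83 to 26.6 in hypoxic AXL WT and 3.94 to 4.02 in hypoxic AXL KO. The endothelial sum was 0.464 to 0.922 CPM in normoxic AXL WT, 3.30 to 4.59 in normoxic AXL KO, 0.865 to 2.56 in hypoxic AXL WT and 14.1 to 15.5 in hypoxic AXL KO. In these 3 sums the genotypes did not overlap at either oxygen level. The higher endothelial and adipocyte values likewise rest mainly on Kdr and Fabp4. A sum that rests on a single gene does not show cells of its type. The part of these markers in the bin values was not tested. In bulk RNA fewer cells of a type and less RNA per cell cannot be told apart.

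Over the 10375 genes the median log2 KO/WT ratio was −0.24 in normoxia and −0.11 in hypoxia with library totals as the scale, and the median hypoxia/normoxia ratio was −0.36 in AXL WT and −0.22 in AXL KO. Every bin value below is an offset: the bin median less this median over all genes in the same comparison. An offset of 0 thus means that a bin moved like the median gene, and an offset of 1 means a ratio 2 times as high on the linear scale. Other settings are named beside bins that they moved by over 1.5 times, among them the wider gene set, which takes all autosomal genes tested by edgeR and adds 0.5 CPM to every group mean.

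KO/WT offsets were alike over long distances on a chromosome. KO/WT offsets ranged from −1.44 to 1.5 in normoxia, with an SD of 0.42 over the 442 bins, and from −1.59 to 1.16 in hypoxia, again with an SD of 0.42. Between neighbouring bins of 1 chromosome (383 pairs) the correlation of the KO/WT offset was 0.56 in normoxia and 0.57 in hypoxia, and for bins 10 apart (239 pairs) it was still 0.43 and 0.44. The hypoxia/normoxia offsets, computed on the same genes, ranged from −1.06 to 1.42 in AXL WT and from −0.94 to 0.87 in AXL KO, with SDs of 0.29 and 0.27. Their neighbouring bins hardly resembled each other, with correlations of 0.08 in AXL WT and 0.04 in AXL KO, and 0.04 and −0.03 at 10 bins apart. With hypoxic AXL WT replicate 1 alone the SD in AXL WT was 0.32 and its neighbouring correlation 0.05. Points of such a correlation share their libraries and, in neighbouring bins, possibly gene families, and no p is attached to them.

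**Figure D1:**
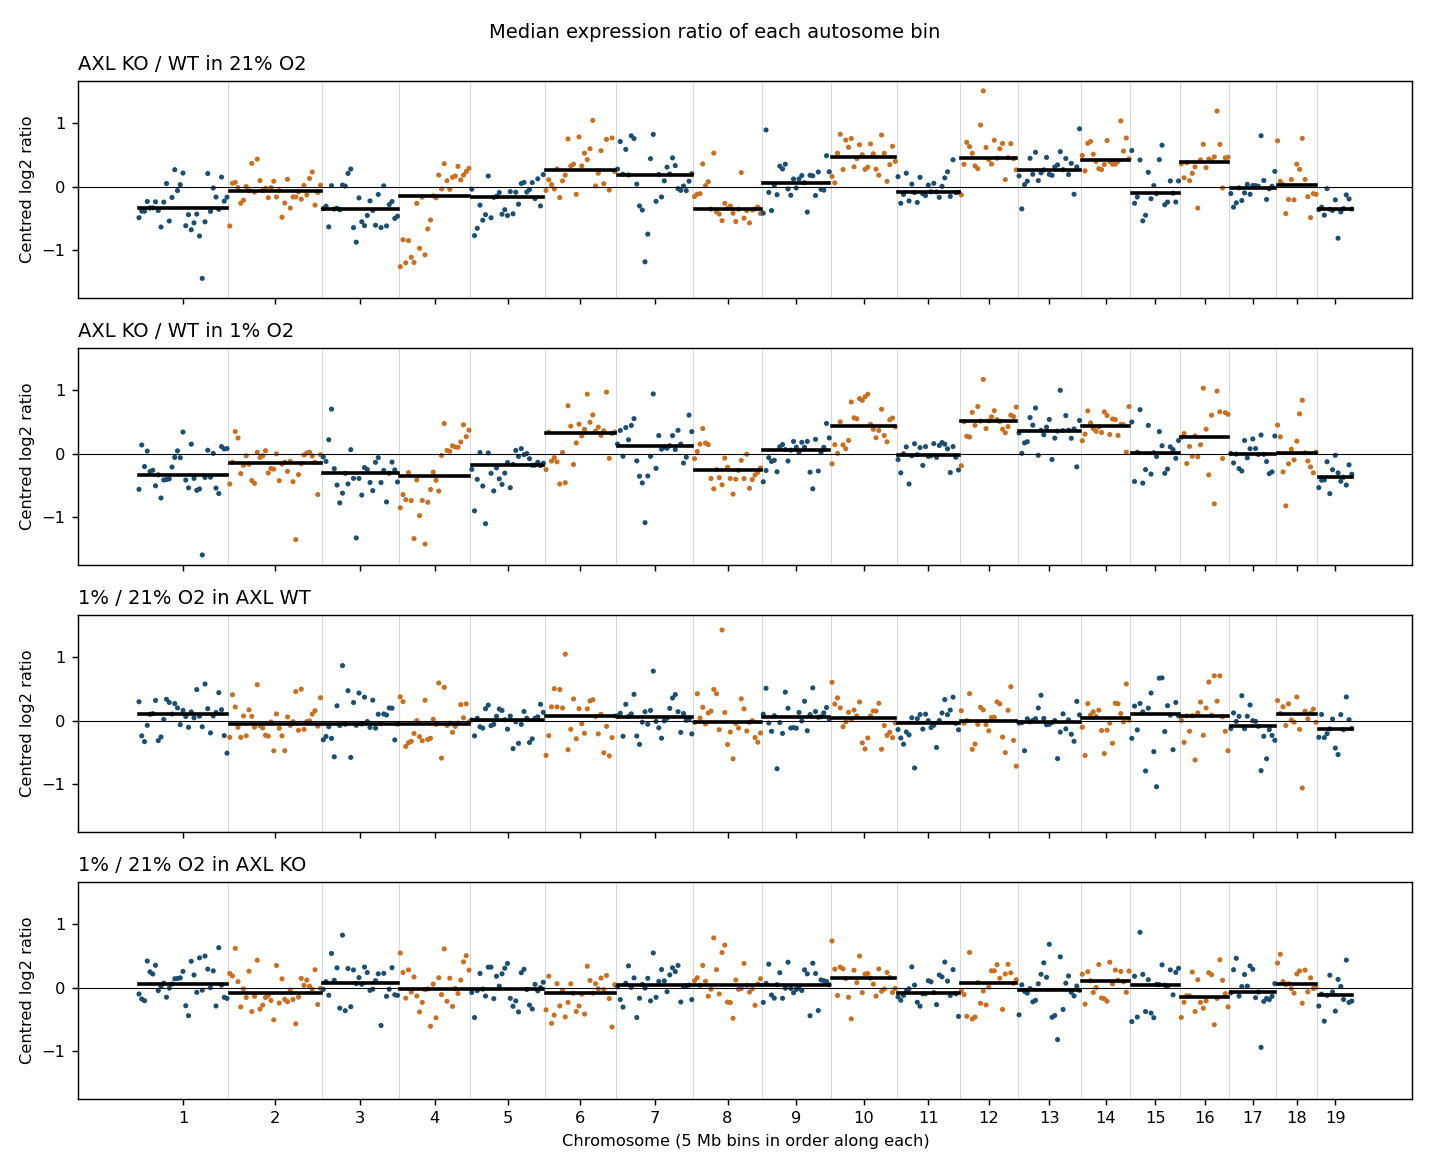
Centred median log2 ratio of each of the 442 bins (y axis) in order along chromosomes 1 to 19 (x axis, alternating colours), with black bars at the median over the bins of a chromosome. In the upper 2 panels (AXL KO/WT) whole chromosomes such as 10, 12 and 14 lie above 0 and 3 and 19 below it. In the lower 2 panels (1% over 21% O2) the bars stay near 0.

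Of the variance of the KO/WT offsets over bins, 45.6% lay between chromosomes in normoxia and 42.4% in hypoxia. For hypoxia/normoxia the shares were 2.78% in AXL WT and 6.44% in AXL KO. Likeness of neighbouring bins remained after each chromosome's median was subtracted, with correlations of 0.23 and 0.28 for KO/WT in normoxia and hypoxia, against 0.08 and 0.00 for hypoxia/normoxia in AXL WT and AXL KO.

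**Figure D2:**
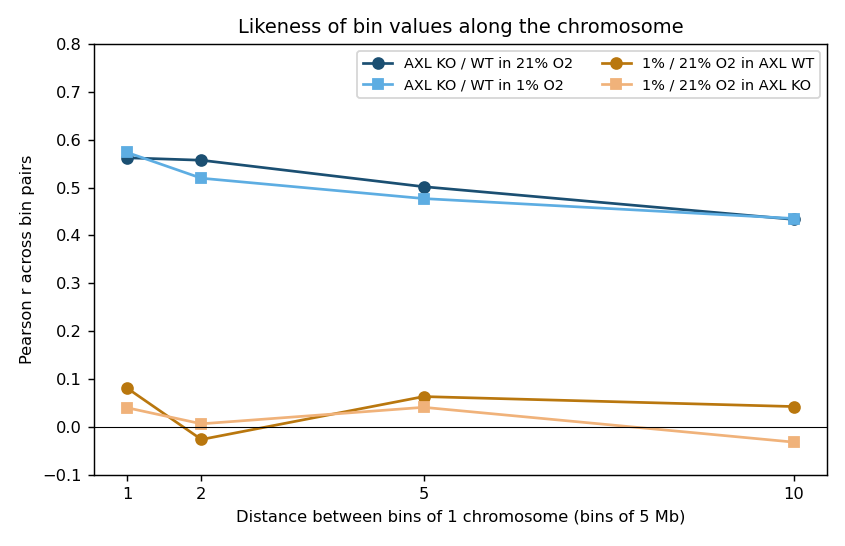
Pearson r between the offsets of bins on 1 chromosome (y axis) against their distance in bins (x axis), for the 4 comparisons. The KO/WT lines fall from 0.56 and 0.57 to 0.43 and 0.44, and the oxygen lines stay between −0.03 and 0.08.

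The offsets recurred at the other oxygen level, in libraries that the first comparison did not use. Of 442 bins 353 (79.9%) had the same sign of KO/WT offset in normoxia and hypoxia, and the correlation between the levels was 0.78. For hypoxia/normoxia, 289 bins (65.4%) had the same sign in AXL WT and AXL KO, with a correlation of 0.43, or 312 of 441 bins (70.7%) and 0.54 against replicate 1 alone. Offsets of 0.5 or more in the same direction at both levels, a ratio about 1.4 times that of the median gene, occurred in 43 bins for KO/WT, 24 higher and 19 lower in AXL KO, on 13 chromosomes. For hypoxia/normoxia in both genotypes it was 7 bins, 5 higher and 2 lower, or 9 bins against replicate 1 alone. With hypoxic AXL WT replicate 1 alone 54 bins passed 0.5 for KO/WT, and 36 of them were among the 43.

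**Figure D3:**
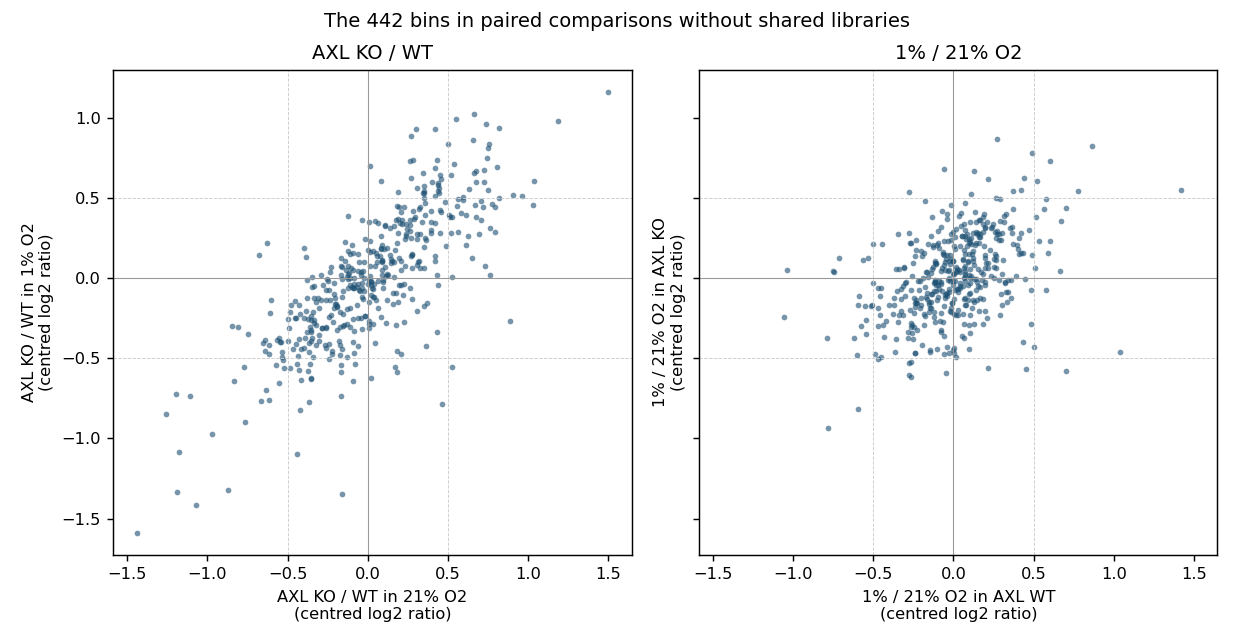
Each point is a bin. Left, its KO/WT offset in 21% O2 (x axis) and in 1% O2 (y axis), both as centred log2 ratios, which follow each other (r 0.78). Right, its 1%/21% O2 offset in AXL WT and in AXL KO, which do so less (r 0.43). Dashed lines mark 0.5.

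Single libraries were compared through a library value, the median over a bin's genes of log2(CPM over the mean of the 4 groups), less the library's median over all genes. The 3 KO libraries did not overlap the 3 WT libraries in 370 of 442 bins in normoxia (83.7%) and 288 in hypoxia (65.2%). In 234 bins they did not overlap in the same direction at both levels, 126 with AXL KO higher and 108 with AXL KO lower. Hypoxic and normoxic libraries did not overlap in 240 bins in AXL WT (54.3%) and 314 in AXL KO (71.0%), of which 144 kept the direction in both genotypes, 70 higher and 74 lower. Since most bins separate the groups, lack of overlap sets no single bin apart.

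The 43 bins hold 791 genes, of which 665 (84.1%) lay on the bin's side of the median gene in normoxia and 642 (81.2%) in hypoxia. A bin enters this count through its median, which already places most of its genes on that side, so nothing is read from these shares.

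By edgeR's quasi-likelihood test with Benjamini-Hochberg adjustment over 16767 genes, 59.7% of all genes were called for KO/WT in normoxia and 63.0% in hypoxia at an adjusted p under 0.05. Of the 10258 bin genes 6250 (3243 higher and 3007 lower in AXL KO) and 6586 (3488 and 3098) were called. For hypoxia/normoxia 59.9% of all genes were called in AXL WT and 58.0% in AXL KO, and 6591 (3052 higher and 3539 lower in hypoxia) and 6371 (3074 and 3297) of the bin genes. The interaction, which tests whether the KO/WT ratio differs between oxygen levels, was called for 28.8% of all genes and for 3459 bin genes (1780 with the higher KO/WT ratio in hypoxia and 1679 with the lower). The bin genes are the better-expressed ones. Their shares of calls were 60.9% and 64.2% for KO/WT, 64.3% and 62.1% for hypoxia/normoxia and 33.7% for the interaction. Each lies somewhat above the share of all genes tested, most of which are bin genes. With library size alone as the scale, the calls for KO/WT split into 2203 higher and 4269 lower in normoxia and 2780 and 3812 in hypoxia. The oxygen calls then split into 1935 higher and 4996 lower in AXL WT and 2217 and 4162 in AXL KO. Bin offsets are taken against the median gene and do not carry this shift.

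The genes of chromosomes 12, 10 and 14 were higher in AXL KO and those of chromosomes 3 and 19 lower. A chromosome value is the median over all its genes at 1 CPM, whether or not their bin was kept. Chromosome 12 (396 such genes, 21 kept bins) had the highest offset, 0.52 in normoxia and 0.53 in hypoxia. Its library values were −0.30, −0.28 and −0.31 in normoxic AXL WT against 0.25, 0.24 and 0.24 in normoxic AXL KO, and −0.19, −0.25 and −0.29 in hypoxic AXL WT against 0.29, 0.31 and 0.28 in hypoxic AXL KO. The genotypes were thus far apart at both levels and the oxygen groups of a genotype lay close together. The lower quartile of its gene ratios was shifted by 0.55 and the upper quartile by 0.45 in normoxia, so both quartiles were shifted alike, and 76.8% of its genes lay above the median gene. In all 20 of its 21 bins had a positive offset at both oxygen levels, and 1 a negative.

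Chromosome 10 (507 genes) followed with offsets of 0.49 in normoxia and 0.44 in hypoxia, positive at both levels in 23 of 24 bins. Chromosome 14 (347 genes) had 0.41 and 0.48, positive at both levels in all 18 of its bins. Chromosome 13 had 0.27 and 0.32, chromosome 6 0.29 and 0.27, and chromosome 16 0.29 and 0.20. At the other end chromosome 3 (545 genes) had −0.40 and −0.42 and chromosome 19 (378 genes) −0.35 and −0.39, the latter negative at both levels in all 13 of its bins. Library values of chromosome 3 were 0.13, 0.14 and 0.12 in normoxic AXL WT against −0.26, −0.27 and −0.26 in normoxic AXL KO, and 0.20, 0.28 and 0.18 in hypoxic AXL WT against −0.18, −0.20 and −0.18 in hypoxic AXL KO. Chromosomes 8 (−0.31 and −0.25), 1 (−0.28 and −0.25) and 5 (−0.21 and −0.21) were lower as well.

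In 17 of 19 chromosomes the KO and WT libraries did not overlap in the same direction at both levels, 8 with AXL KO higher and 9 with AXL KO lower. The exceptions were chromosome 18, with offsets of −0.02 and −0.02, where the genotypes overlapped at both levels, and chromosome 11, with −0.01 and −0.03, where they overlapped in hypoxia. Over the 19 chromosomes the correlation between oxygen levels was 0.98 and the largest difference between them 0.12 (chromosome 7). With hypoxic AXL WT replicate 1 alone no chromosome offset moved by more than 0.07. By contrast the hypoxia/normoxia offsets of whole chromosomes stayed between −0.09 and 0.10 in AXL WT and between −0.16 (chromosome 19) and 0.10 in AXL KO.

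**Figure D4:**
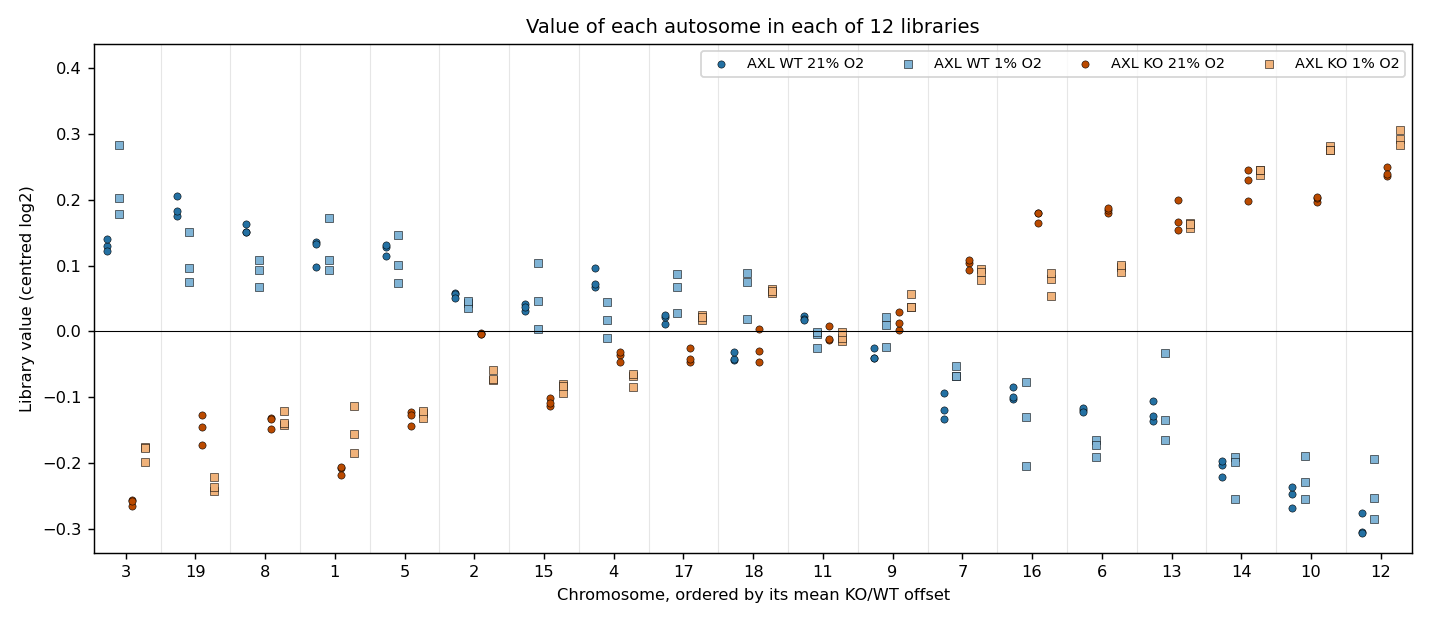
Library value of each chromosome (y axis, centred log2) in each of the 12 libraries, with chromosomes ordered by their mean KO/WT offset (x axis). Blue symbols are AXL WT and orange AXL KO, circles 21% O2 and squares 1% O2. At the left end (3, 19, 8) AXL WT libraries lie above AXL KO, at the right end (14, 10, 12) below, and no spread within a group exceeds an SD of 0.07.

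The 10375 autosomal genes at 1 CPM were split into terciles of mean CPM. The lowest and the highest tercile had the same sign in 14 of 19 chromosomes in normoxia and 13 in hypoxia. The 2 terciles of chromosome 14 stood at 0.21 and 0.76 in normoxia, and those of chromosome 3 at −0.32 and −0.35. This split was chosen after the bin values were seen. The 5818 autosomal genes tested by edgeR that the rule left out were set beside the genes used, with 0.5 CPM added. Their chromosome medians had the same sign in 12 of 19 chromosomes in normoxia and 11 in hypoxia, with a correlation of 0.82 at each level. On the most shifted chromosomes they were much smaller: 0.15 and 0.16 on chromosome 12, 0.17 and 0.14 on chromosome 10, and −0.11 and −0.11 on chromosome 3. On chromosome 16 they were −0.05 and −0.06, against 0.29 and 0.20 in the genes used. The part of the added 0.5 CPM in this was not tested. The offset of a bin was hardly related to its number of genes (r −0.04 over 442 bins), the mean log2 CPM of its genes (−0.10) or their median length (−0.08).

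Runs of neighbouring bins with offsets of 0.2 or more in the same direction at both oxygen levels formed 22 stretches of 3 or more bins. The longest held 8 bins. On chromosome 10 it ran from 50 to 90 Mb (233 genes, offsets 0.54 and 0.51, 76.0% and 76.4% of genes above the median gene in normoxia and hypoxia). On chromosome 12 it ran from 5 to 45 Mb (79 genes, 0.64 and 0.65). Next was a stretch of 7 bins on chromosome 14 from 45 to 80 Mb (193 genes, 0.35 and 0.51). The longest stretches lower in AXL KO had 5 bins: chromosome 4 from 0 to 25 Mb (48 genes, −1.11 and −0.72), chromosome 3 from 85 to 110 Mb (245 genes, −0.46 and −0.55) and chromosome 8 from 65 to 90 Mb (181 genes, −0.35 and −0.38) and from 105 to 130 Mb (189 genes, −0.42 and −0.35). Most stretches lay on chromosomes whose median was shifted in the same direction.

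Chromosomes 4 and 7 did not shift as units, and others were mixed as well. At both levels chromosome 15 had 8 bins higher and 8 lower in AXL KO, chromosome 18 had 7 and 6, and chromosome 11 had 7 and 10. On chromosome 4, whose median was only −0.12 in normoxia and −0.08 in hypoxia, the first 65 Mb (185 genes) stood at −0.79 and −0.74, with all 11 bins lower in AXL KO at both levels. From 105 to 160 Mb (411 genes) the same chromosome stood at 0.12 and 0.14, with 9 of 11 bins higher. Library values of the first window were 0.31, 0.32 and 0.28 in normoxic AXL WT and 0.26, 0.16 and 0.24 in hypoxic AXL WT, against −0.41, −0.39 and −0.43 in normoxic AXL KO and −0.57, −0.55 and −0.52 in hypoxic AXL KO. In this window the genotypes were thus separated in every library. Chromosome 7 changed direction along its length, with 0.62 and 0.35 from 0 to 35 Mb, −0.43 and −0.44 from 40 to 65 Mb and 0.15 and 0.10 from 65 to 150 Mb. The borders of these windows were chosen after the bin values were seen.

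**Figure D5:**
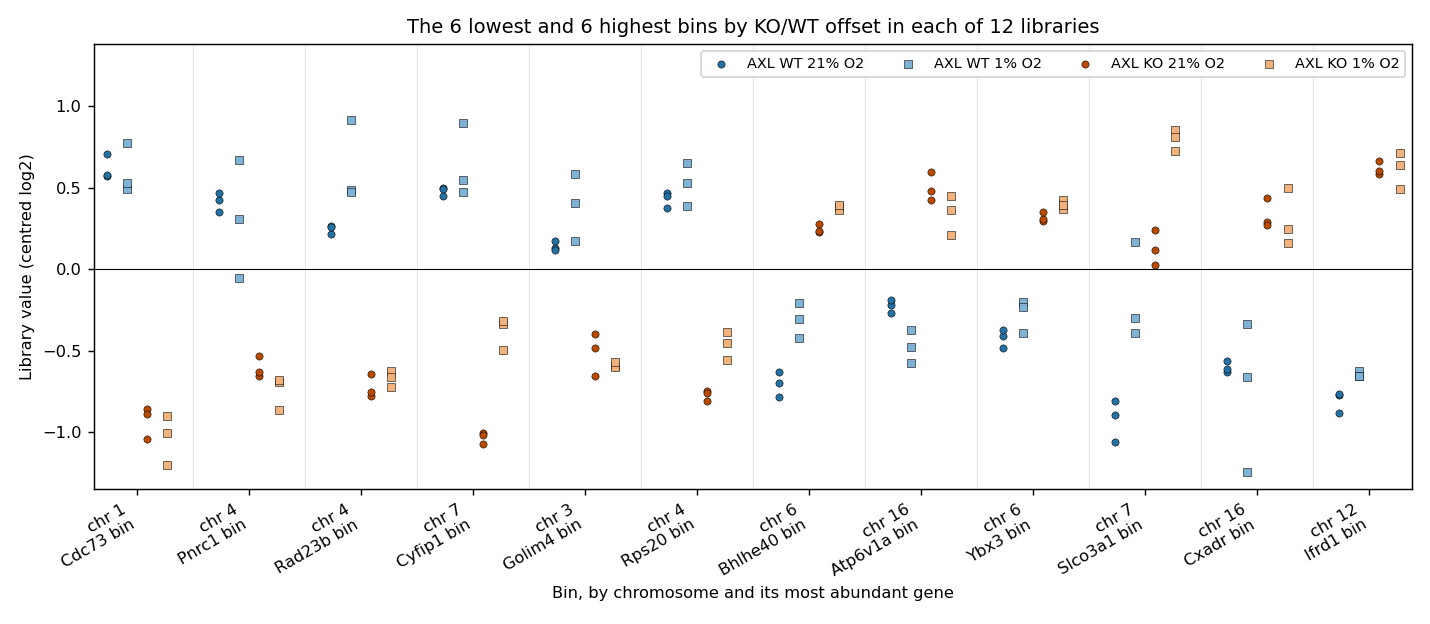
Library values (y axis, centred log2) of the 6 bins with the lowest and the 6 with the highest mean KO/WT offset, named on the x axis by chromosome and most abundant gene. Symbols are as for the chromosomes. AXL KO and AXL WT do not overlap within an oxygen level in any of the 12 bins.

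The bin with the lowest KO/WT offset lay on chromosome 1 from 140 to 145 Mb, with −1.44 in normoxia and −1.59 in hypoxia. All 5 of its genes were called lower in AXL KO at both levels. Library values were 0.57, 0.58 and 0.71 in normoxic AXL WT and 0.49, 0.77 and 0.53 in hypoxic AXL WT, against −0.86, −1.04 and −0.89 in normoxic AXL KO and −0.90, −1.20 and −1.01 in hypoxic AXL KO. No library of a genotype came near the other genotype. Cdc73 (ENSMUSG00000026361, chromosome 1, 143598800 to 143702893) encodes a subunit of the PAF1 elongation complex. It stood at 268, 254 and 270 CPM in normoxic AXL WT and 76.9, 68.8 and 67.2 in normoxic AXL KO, and at 171, 200 and 203 in hypoxic AXL WT and 63.6, 53.4 and 60.3 in hypoxic AXL KO. Uchl5, a deubiquitinase of the proteasome, had a log2 KO/WT fold change (edgeR, TMM scale) of −2.08 ± 0.10 (SE) in normoxia and −1.54 ± 0.10 in hypoxia. Trove2, which encodes the RNA-binding protein Ro60, was lower by −1.42 ± 0.16 and −0.88 ± 0.16. These fold changes describe genes of bins picked for the same contrast, so no p is given for them. Counts of called genes in the lowest and highest bins, here and below, were favoured by the same choice. Nothing is read from them. Of all genes tested, 59.7% were called in normoxia (4976 higher and 5033 lower in AXL KO) and 63.0% in hypoxia (5015 and 5541).

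Of the next 5 lowest bins 3 lay on the lower part of chromosome 4. From 30 to 35 Mb (17 genes, −1.19 and −1.33) 13 genes were called lower and 0 higher in normoxia, and 13 lower and 1 higher in hypoxia. Library values were 0.35, 0.43 and 0.47 in normoxic AXL WT against −0.54, −0.66 and −0.63 in normoxic AXL KO, and 0.67, −0.05 and 0.31 in hypoxic AXL WT against −0.69, −0.86 and −0.68 in hypoxic AXL KO. Cnr1, a cannabinoid receptor gene, was far lower than its neighbours, at 416 ± 16.1 CPM (SD, n = 3) in normoxic AXL WT and 1.93 ± 0.38 in normoxic AXL KO. It stood at 213, 51.5 and 135 CPM in the hypoxic AXL WT libraries and at 3.17 to 4.38 in hypoxic AXL KO. The other genes named here were lower by less: Casp8ap2, which serves histone mRNA processing, by −1.97 ± 0.19 and −2.03 ± 0.19, and Ube2j1, a ubiquitin-conjugating enzyme of the endoplasmic reticulum, by −1.17 ± 0.08 and −1.28 ± 0.08. Pnrc1, a nuclear receptor coregulator, stood at −0.35 ± 0.15 in normoxia and −1.20 ± 0.15 in hypoxia.

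From 55 to 60 Mb on chromosome 4 (18 genes, −1.07 and −1.42) 13 and 15 genes were called lower, against 0 and 1 higher. With the wider gene set its offsets were −0.48 and −0.89. The α-catulin gene Ctnnal1 was lower by −2.92 ± 0.15 and −2.23 ± 0.14 and the thioredoxin gene Txn1 by −2.18 ± 0.18 and −1.81 ± 0.18. Ctnnal1 also rose in hypoxia in both genotypes, by 2.15 ± 0.14 in AXL WT (adjusted p = 3.5e-07) and 2.84 ± 0.15 in AXL KO (adjusted p = 1e-07, both edgeR). From 0 to 5 Mb (7 genes, −1.26 and −0.85) Rps20, a ribosomal protein gene, stood at −1.24 ± 0.12 and −0.68 ± 0.11 and Tgs1, the cap hypermethylase of small nuclear RNAs, at −1.48 ± 0.15 and −1.62 ± 0.15. Impad1, a Golgi phosphatase gene of the same bin, went the other way in hypoxia (−0.12 ± 0.09 and 0.47 ± 0.09).

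The remaining low bins were on chromosomes 7 and 3. From 55 to 60 Mb on chromosome 7 (11 genes, −1.18 and −1.08) 9 genes were called lower and 0 higher in normoxia, and 8 and 1 in hypoxia. With the wider gene set its hypoxia offset was −0.69. This is the bin of the ubiquitin ligase genes Herc2 (−1.01 ± 0.15 and −1.22 ± 0.15) and Ube3a (−0.82 ± 0.10 and −1.02 ± 0.10), of Cyfip1 of the actin-regulating WAVE complex (−1.16 ± 0.13 and −1.65 ± 0.14) and of Nipa2, a magnesium transporter gene (−1.63 ± 0.09 and −1.77 ± 0.09). On chromosome 3 from 75 to 80 Mb (9 genes, −0.87, or −0.37 with the wider gene set, and −1.32) the Golgi protein gene Golim4, the most abundant of the bin, hardly differed (−0.13 ± 0.08 and 0.11 ± 0.08). Ppid, which encodes a cyclophilin (−1.39 ± 0.12 and −1.35 ± 0.13), and Pdcd10, a gene mutated in cerebral cavernous malformations (−1.45 ± 0.10 and −1.87 ± 0.10), lay well below 0.

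The bin with the highest KO/WT offset lay on chromosome 12 from 40 to 45 Mb, with 1.5 in normoxia and 1.16 in hypoxia. With the wider gene set these were 0.75 and 0.68. Of its 8 genes 7 were called higher and 0 lower at each level. Library values were −0.77, −0.77 and −0.88 in normoxic AXL WT against 0.66, 0.58 and 0.60 in normoxic AXL KO, and −0.62, −0.65 and −0.65 in hypoxic AXL WT against 0.71, 0.49 and 0.64 in hypoxic AXL KO. The genotypes were again widely separated. Dock4, an activator of Rac GTPases, stood at 20.9, 19.7 and 19.3 CPM in normoxic AXL WT and 69.0, 54.6 and 62.4 in normoxic AXL KO, and at 8.67, 5.81 and 5.32 in hypoxic AXL WT and 34.5, 31.3 and 29.1 in hypoxic AXL KO. It also fell in hypoxia in both genotypes (−1.30 ± 0.18, adjusted p = 9e-05, and −0.76 ± 0.18, adjusted p = 0.0029, edgeR). The phospholipase gene Pnpla8 was higher in AXL KO by 1.62 ± 0.13 and 1.79 ± 0.13, the SNARE-binding gene Stxbp6 by 2.41 ± 0.28 and 2.53 ± 0.29, and Dnajb9, a co-chaperone of the endoplasmic reticulum, by 1.64 ± 0.31 and 0.95 ± 0.30. Ifrd1, the most abundant gene of the bin, stood lower than these in normoxia, at 0.36 ± 0.20, and close to Dnajb9 in hypoxia, at 0.99 ± 0.20.

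On chromosome 16 the bin from 75 to 80 Mb (7 genes) had offsets of 1.18 in normoxia and 0.98 in hypoxia, the latter 0.53 against hypoxic AXL WT replicate 1 alone and 0.25 with the wider gene set. Cxadr, the junction protein used as a receptor by coxsackieviruses and adenoviruses, stood at 74.3, 71.7 and 67.3 CPM in normoxic AXL WT and 615, 461 and 494 in normoxic AXL KO, and at 75.6, 77.9 and 51.4 in hypoxic AXL WT and 310, 273 and 297 in hypoxic AXL KO. The deubiquitinase gene Usp25 was higher by 1.36 ± 0.19 and 2.05 ± 0.19. The corepressor gene Nrip1 of the same bin stood at −0.14 ± 0.37 and 0.19 ± 0.37. From 40 to 45 Mb (11 genes, 0.66 and 1.03) the V-ATPase gene Atp6v1a was higher by 1.28 ± 0.08 and 1.17 ± 0.08 and the repressor gene Zbtb20 by 1.98 ± 0.25 and 1.55 ± 0.25. The normoxia offset of that bin was 0.35 among genes of at least 5 CPM and 0.32 with the wider gene set, and its hypoxia offset was 0.65 with the mean over genes.

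Chromosome 6 held a pair of the highest bins. From 105 to 110 Mb (8 genes, 1.04, or 0.43 with the wider gene set, and 0.61) the oxygen-regulated repressor gene Bhlhe40 stood at 59.3, 63.6 and 60.6 CPM in normoxic AXL WT and 235, 249 and 266 in normoxic AXL KO, and at 449, 165 and 204 in hypoxic AXL WT and 930, 900 and 882 in hypoxic AXL KO. It rose in hypoxia in both genotypes, by 2.46 ± 0.30 (adjusted p = 2.8e-05) and 2.06 ± 0.29 (adjusted p = 0.0001, edgeR). Itpr1, a calcium channel gene, was higher in AXL KO by 2.15 ± 0.17 and 2.38 ± 0.18. From 130 to 135 Mb (15 genes, 0.74 and 0.96) the cell-cycle inhibitor gene Cdkn1b (p27) was higher by 1.47 ± 0.09 and 0.94 ± 0.09 and the Wnt co-receptor gene Lrp6 by 0.98 ± 0.15 and 1.03 ± 0.15, while 3 genes in normoxia and 2 in hypoxia were called lower. With the mean over genes in place of the median the offsets of that bin were 0.26 and 0.52, and with the wider gene set 0.23 and 0.22. On chromosome 7 from 70 to 75 Mb (7 genes, 0.82 and 0.94, or 0.24 and 0.31 with the wider gene set and 0.59 in hypoxia without hypoxic AXL WT replicate 3) Rgma, a co-receptor gene of bone morphogenetic proteins, was higher by 1.35 ± 0.12 and 2.03 ± 0.12, and the chromatin remodeller gene Chd2 stood at 0.30 ± 0.12 and 0.52 ± 0.12.

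The bin that holds Axl, chromosome 7 from 25 to 30 Mb, was higher in AXL KO although Axl itself was lower. Its 81 genes had a median offset of 0.80 in normoxia and 0.44 in hypoxia. Library values were −0.45, −0.41 and −0.44 in normoxic AXL WT against 0.24, 0.33 and 0.33 in normoxic AXL KO, and −0.26, −0.24 and −0.21 in hypoxic AXL WT against 0.29, 0.43 and 0.36 in hypoxic AXL KO. Among all genes tested 59.7% were called in normoxia (4976 higher and 5033 lower in AXL KO) and 63.0% in hypoxia (5015 and 5541). In this bin 53 genes were called higher and 7 lower in normoxia, and 46 and 10 in hypoxia. Axl (−8.18 ± 0.17 and −7.98 ± 0.17) was among the lower ones. Numbl, a gene of Notch signalling, was higher by 2.31 ± 0.34 and 2.70 ± 0.35 and the repressor gene Cic by 0.99 ± 0.17 and 1.08 ± 0.17, and the elongation factor gene Supt5 stood at 0.16 ± 0.14 and −0.05 ± 0.14.

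The bin from 85 to 90 Mb on chromosome 4 was named for Cdkn2a, a cell-cycle inhibitor locus. Cdkn2a and its neighbour Cdkn2b had 0 counts in all 6 AXL KO libraries, so the rule left both out. In normoxic AXL WT Cdkn2a had 653, 664 and 801 counts and in hypoxic AXL WT 1500, 3166 and 2827. The 11 genes that were used had a small offset of −0.15 and −0.29. Leaving out a hypoxic AXL WT library brought the hypoxia value to between −0.17 and −0.12, replicate 1 alone gave −0.14, and leaving out hypoxic AXL KO replicate 2 brought the values to −0.05 and −0.07. The normoxia value was −0.29 with the mean over genes. Mtap, the methylthioadenosine phosphorylase gene next to Cdkn2a, was higher in AXL KO: it stood at 98.7, 96.6 and 101 CPM in normoxic AXL WT and 461, 578 and 476 in normoxic AXL KO, and at 46.4, 80.2 and 71.8 in hypoxic AXL WT and 101, 116 and 119 in hypoxic AXL KO. Haus6, a gene of the spindle complex augmin, was lower in normoxia (−2.06 ± 0.15) and stood at −0.24 ± 0.14 in hypoxia. Neighbours at this locus thus differed in direction.

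Neighbours are given for the lowest and the highest hypoxia/normoxia bin, on a single side each, and nothing general is read from them. Beside the lowest, on chromosome 17, the next bin upstream stood at −0.09 in AXL WT and −0.07 in AXL KO. Beside the highest, on chromosome 8, the next bin downstream stood at 0.13 and 0.67, alike in AXL KO but not in AXL WT. The highest was on chromosome 8 from 55 to 60 Mb (6 genes), with 1.42 in AXL WT and 0.55 in AXL KO. The AXL WT value was 0.93 with the wider gene set, 0.77 among genes of at least 5 CPM, 0.84 among coding genes and 0.91 with the mean over genes, which gave 0.89 in AXL KO. Galnt7 is a gene of mucin-type O-glycosylation. It stood at 99.6, 101 and 97.3 CPM in normoxic AXL WT and 225, 380 and 332 in hypoxic AXL WT. In AXL KO it stood at 44.0, 40.4 and 43.5 CPM in normoxia and 45.7, 48.0 and 48.0 in hypoxia. Hypoxic libraries lay above normoxic ones in both genotypes, by far more in AXL WT. Its log2 KO/WT ratio was −0.97 ± 0.16 at 21% O2 and −2.56 ± 0.16 at 1% O2, given with no p because the same libraries chose the bin. Sap30 of the Sin3 corepressor was higher in hypoxia by 2.00 ± 0.14 and 2.44 ± 0.14, and Hmgb2, a chromatin protein gene of the same bin, stood at −2.22 ± 0.18 in AXL WT and 0.60 ± 0.17 in AXL KO.

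Next were chromosome 3 from 40 to 45 Mb (10 genes, 0.86 and 0.82) and chromosome 10 from 0 to 5 Mb (7 genes, 0.60 and 0.73). In the former Hspa4l, a heat shock gene of the Hsp110 family, was higher in hypoxia by 3.62 ± 0.19 in AXL WT and 2.94 ± 0.18 in AXL KO, and Abhd18 by 2.48 ± 0.17 and 2.07 ± 0.16. The KO/WT offset of this bin in hypoxia was −0.62, or −0.28 against hypoxic AXL WT replicate 1 alone, −0.38 without its replicate 2 and −0.34 with the wider gene set. Its hypoxia/normoxia value in AXL KO was 0.43 with the wider gene set, and that in AXL WT was 1.35 with the mean over genes. In the latter Mthfd1l, of mitochondrial folate metabolism, stood at 0.53 ± 0.10 and 1.02 ± 0.10 and Armt1 at 0.77 ± 0.10 and 0.77 ± 0.10. The values of this bin were 0.30 and 0.10 with the mean over genes and 0.36 and 0.48 among coding genes.

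The lowest hypoxia/normoxia bins were chromosome 17 from 60 to 65 Mb (5 genes, −0.79 and −0.94), chromosome 13 from 75 to 80 Mb (12 genes, −0.60 and −0.81) and chromosome 18 from 55 to 60 Mb (10 genes, −1.06 and −0.24). With the wider gene set the first stood at −0.35 in AXL WT and the last at −0.16 and −0.45, and with the mean over genes the last stood at −0.42 in AXL KO. Against hypoxic AXL WT replicate 1 alone the chromosome 13 bin stood at −1.01 in AXL WT. Man2a1, a Golgi mannosidase gene, stood at −1.62 ± 0.27 and −0.61 ± 0.27 and the F-box gene Fbxl17 at −0.86 ± 0.14 and −1.34 ± 0.14. On chromosome 13 Rhobtb3 stood at −1.59 ± 0.29 in AXL WT and −0.11 ± 0.28 in AXL KO, and the nuclear receptor gene Nr2f1 at −1.84 ± 0.32 and −0.56 ± 0.31. On chromosome 18 the ion cotransporter gene Slc12a2 stood at −1.05 ± 0.10 and −0.13 ± 0.10, and Isoc1 at −2.10 ± 0.30 and −1.69 ± 0.29. All 3 bins had positive KO/WT offsets at both oxygen levels, for example 0.76 and 0.84 (1.29 among genes of at least 5 CPM) on chromosome 18.

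In 89 of 442 bins the KO/WT offset had opposite signs at the oxygen levels, and in 36 the levels lay 0.5 or more apart. These differences were not tested. The largest difference downward was on chromosome 16 from 60 to 65 Mb (6 genes), from 0.47 in normoxia to −0.79 in hypoxia. Library values were −0.36, −0.45 and −0.29 in normoxic AXL WT against −0.02, −0.15 and −0.10 in normoxic AXL KO, and 0.06, 0.85 and 0.34 in hypoxic AXL WT against −0.40, −0.27 and −0.20 in hypoxic AXL KO. The genotypes did not overlap at either level, in opposite directions, and hypoxic AXL WT was the group that spread: against its replicate 1 alone the hypoxia offset was −0.25, and without its replicate 2 it was −0.37. With the wider gene set the offsets were 0.20 and −0.44. Pros1, which encodes the TAM receptor ligand protein S, led this bin. It stood at 57.3, 299 and 144 CPM in hypoxic AXL WT and at 11.5, 13.9 and 13.4 in hypoxic AXL KO, against 34.9 to 35.7 in normoxic AXL WT and 40.1 to 47.2 in normoxic AXL KO. Zfp654, a zinc finger gene, had log2 KO/WT ratios of 1.13 ± 0.31 in normoxia and −0.92 ± 0.30 in hypoxia, and Cggbp1, a CGG-repeat binding protein gene, of 0.40 ± 0.16 and −0.58 ± 0.16.

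On chromosome 2 from 135 to 140 Mb (6 genes) the KO/WT offset was −0.16 in normoxia and −1.35 in hypoxia, or −0.87 against hypoxic AXL WT replicate 1 alone and −0.61 with the wider gene set. The normoxia value was −0.68 with the mean over genes and −0.28 without normoxic AXL KO replicate 1. Btbd3, a gene of dendrite orientation, stood at 317, 724 and 575 CPM in hypoxic AXL WT and 160, 150 and 153 in hypoxic AXL KO, while Plcb4, a phospholipase C gene, was lower in AXL KO at both levels (−3.03 ± 0.34 and −3.49 ± 0.34). The largest differences upward were on chromosome 3 from 15 to 20 Mb (7 genes, −0.63 to 0.22) and chromosome 1 from 120 to 125 Mb (7 genes, −0.68 to 0.15). Both hypoxia values turned negative against hypoxic AXL WT replicate 1 alone, to −0.56 and −0.25, and with the mean over genes, to −0.07 and −0.22, where the normoxia value of the former was −0.35. Without hypoxic AXL WT replicate 2 they were 0.03 and 0.09 and without its replicate 3 they were 0.07 and 0.07. The former was also negative with the wider gene set (−0.03) and among coding genes (−0.18). In the former the ferroxidase gene Cp was higher in AXL KO (1.42 ± 0.13 and 1.22 ± 0.13) and Armc1 lower (−1.07 ± 0.16 and −0.75 ± 0.16). In the latter the iron reductase gene Steap3 went from −0.66 ± 0.20 in normoxia to 1.01 ± 0.20 in hypoxia, the sterol regulator gene Insig2 stood at 0.56 ± 0.11 and 0.20 ± 0.11, and the helicase gene Ddx18 was lower at both levels (−1.42 ± 0.11 and −1.36 ± 0.11).

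The 12 bins of the most extreme KO/WT offsets hold 123 of the 10258 bin genes (1.20%). Of 327 bin genes in 13 families found by symbol prefix, 2 lay in these bins (0.612%), both of them zinc finger genes (Zfp, 264 genes in 111 bins). Genes named for the histocompatibility complex (H2-, 14 genes, 11 in 1 bin) had a median log2 KO/WT ratio, less that of all genes, of 0.85 in normoxia and 0.61 in hypoxia. The Zfp genes stood at 0.18 and −0.23, and the glutathione transferase genes (Gst, 15 genes in 9 bins) at 0.44 and −0.28.

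The gene number at which a bin is kept also bears on the spread of its median. The 14 bins with 5 genes, just inside the rule, had an SD of KO/WT offsets of 0.56 in normoxia and 0.59 in hypoxia, and the 12 bins with 4 genes, just outside, 0.48 and 0.37. Just inside the expression minimum, 112 autosomal genes had a lowest group mean of 1 to 1.1 CPM, and 106 just outside had 0.9 to 1 CPM. Bins with 5 to 9 genes (91), 10 to 29 genes (237) and 30 or more (114) had SDs of the mean KO/WT offset of 0.49, 0.39 and 0.30. Their share with the same sign at both oxygen levels was nearly the same, at 79.1%, 80.6% and 78.9%.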

How the data were processed

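RNA of 12 libraries, 3 per group, was analysed from gene counts that the authors deposited, 1 table per library. Per the submitters' processing notes the reads were checked with FastQC 0.11.5, aligned with STAR 2.5.1b to GRCm38, counted with featureCounts 1.4.6 and analysed with DESeq2 1.12.3. Per the file headers, counting used featureCounts 1.6.0, reverse stranded (setting 2). Groups come from the sample titles, because the genotype tag contradicts the title in 6 libraries and was not used. Symbols of 54165 of 54232 genes came from GENCODE by Ensembl ID.

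CPM were counts as a share of the library total, in the usual per-million unit. A gene was placed by its lowest start, and log2 ratios were taken between group mean CPM with no pseudocount. Library values used a floor of 0.01 CPM. Gene tests used edgeR 4.0.16 in R 4.3.3 (filterByExpr, TMM, robust quasi-likelihood fit of 4 group means, 8 residual degrees of freedom, 16767 genes, adjusted p under 0.05). Values after ± are SE for log2 fold changes and SD of 3 libraries for CPM. No bin value was tested. Fit and bin steps were tested on simulated data.

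Named were the 6 highest and 6 lowest bins by mean KO/WT offset with the same sign at both oxygen levels, the Axl and Cdkn2a bins, the 3 highest and 3 lowest by hypoxia/normoxia, and 2 in each direction by the difference between oxygen levels. In each, genes came from the 3 most abundant and the 2 of largest ratio in the bin's direction, and some of these are left out. The bins, lists and rules were chosen with earlier results of these data known. Alternatives were TMM-scaled CPM, other minimums, pseudocounts, bin sizes and summaries, other normalizations and tools (DESeq2 1.42.0, limma 3.58.1), a replicate block, and each library left out. Chosen after seeing the data were coding genes alone, chromosome medians subtracted, hypoxia/normoxia offsets under the alternatives, and gene calls and chromosome offsets without hypoxic AXL WT replicates 2 and 3. Tables and figures were made with Python 3.11.15 (pandas 2.3.3, matplotlib 3.10.9).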

Additional observations from a re-analysis of the deposited data

Results flagged for a closer look

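The 6 genes of the bin on chromosome 16 from 60 to 65 Mb drew attention because all KO libraries lay above all WT libraries in normoxia and below them in hypoxia. The hypoxia offset less the normoxia offset was −1.25, and this difference was not tested. On chromosome 2 from 135 to 140 Mb all hypoxic libraries lay above the normoxic ones in AXL WT and below them in AXL KO, and the AXL KO value less the AXL WT value was −1.02, again untested. In both bins replicate 2 was the highest of the hypoxic AXL WT libraries. Both were named for their difference between oxygen levels, and only named bins were looked at for such reversals. Lack of overlap was common among the 442 bins. It held for KO and WT in 370 in normoxia and 288 in hypoxia, and for the oxygen levels in 240 in AXL WT and 314 in AXL KO.

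Named genes also drew attention where the interaction in edgeR, the log2 KO/WT ratio in hypoxia less that in normoxia, had an adjusted p under 0.05. About 3 in 10 of all genes meet this (28.8%), and the number of calls depends on hypoxic AXL WT. In the low KO/WT bins the interaction was 2.53 for Cnr1, 0.69 for Ctnnal1, 0.59 for Impad1, 0.56 for Rps20, 0.53 for Uchl5, −0.41 for Pdcd10 and −0.85 for Pnrc1. In the high bins it was 0.67 for Rgma, −0.53 for Cdkn1b and −0.88 for Cxadr. The lists here and below hold only genes described above. Other genes of the low bins also had an adjusted p under 0.05: Etfdh (−1.15), Rad23b (−0.49) and Chchd7 (0.77). So did Slco3a1 (−1.32), Edem1 (−0.70), Naa50 (0.41) and Ybx3 (1.03) of the high bins. In the Cdkn2a bin the interaction was 1.82 for Haus6 and −1.69 for Mtap.

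In the bins named by hypoxia/normoxia the interaction was 2.82 for Hmgb2, 1.48 for Rhobtb3, 1.28 for Nr2f1, 0.93 for Slc12a2, 0.50 for Mthfd1l and −1.60 for Galnt7. In the bins named for their difference between oxygen levels, which chose these genes, it was 1.67 for Steap3, −0.98 for Cggbp1, −1.45 for Btbd3, −2.05 for Zfp654 and −4.12 for Pros1.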

How the results depend on the processing

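The percent of bins with same-sign KO/WT offset at both oxygen levels (79.9%) was 82.1% with the mean over genes, 76.8% with 2.5 Mb bins, 85.2% with 10 Mb bins, 64.5% with each chromosome's median subtracted, and 79.0% to 82.1% with 1 library left out. The 43 bins with same-sign KO/WT offset of 0.5 or more at both oxygen levels became 23 with filterByExpr genes and a pseudocount of 0.5 CPM, 66 with the mean, 77 with 2.5 Mb bins and 24 with 10 Mb bins. The neighbouring-bin correlation of the mean KO/WT offset (0.63) became 0.57 with filterByExpr genes, 0.49 with the mean, 0.57 with 2.5 Mb bins, 0.72 with 10 Mb bins, 0.68 with 10 or more genes per bin and 0.28 with chromosome medians subtracted. Other bin sizes change how many bins there are, and for the other settings the cause was not tested. The 12 bins of the most extreme KO/WT offsets kept their sign in all 476 values under the alternatives, and 60 of these moved by more than the spread between libraries. The 4 most extreme chromosomes kept theirs in all 160. Of their 8 values per setting, 7 moved by more than the spread between libraries with filterByExpr genes and 6 with the mean.

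Interaction calls (3459) ran from 2561 to 6054 with 1 library left out, the highest without hypoxic AXL WT replicate 1, and were 5273 without its replicates 2 and 3, where the lone library is assumed to vary like the other groups. Interaction calls were 3946 without hypoxic AXL WT replicate 2 and 3513 without its replicate 3. Other counts of calls stayed within 1.5 times. With library size alone the interaction split into 2122 with the higher KO/WT ratio in hypoxia and 1376 with the lower. Same-numbered libraries of different groups did not deviate together (r −0.0645 to 0.14 over 18 pairs), and with a replicate block the 5 counts were 6173, 6532, 6519, 6297 and 3300. Bins of few genes and hypoxic AXL WT, whose libraries spread most, limit the precision of single bins.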
